A study of Mus musculus with 6 samples.

Results

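Long intergenic noncoding RNAs (lincRNAs) are transcripts from genes that lie between protein-coding genes and have no long open reading frame. The 112 described here are the genes of type lincRNA in GENCODE M21 (build GRCm38) whose mean level was at least 2 CPM over all 6 libraries, out of 5614 lincRNA genes in the deposited count tables. CPM is the read count of a gene scaled to the total over genes of its library. Of the 5614 genes, 1197 had at least 1 read in some library, and the 112 held 91.8% of all lincRNA reads. The mean level over both groups chose the members, so a gene high in a single group could enter through that group alone. This holds for 12 members, among them Lncenc1 and 5033406O09Rik, which reached 2 CPM only in Alb/MDA-9, and Lncpint, which did so only in WT. Just inside the limit were Platr22 at 2.01, Gm5113 at 2.02 and C730027H18Rik (ENSMUSG00000112189) at 2.02 CPM, and just outside it Gm47430 at 1.94, 1300014J16Rik at 1.94 and Gm43597 at 1.91 CPM.

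The libraries were made from primary hepatocytes that were isolated, cultured and left untreated. Of the 6 libraries, 3 came from WT mice and 3 from Alb/MDA-9 mice, which were heterozygous littermates in a B6CBAF1 background on regular chow. The Alb/MDA-9 animals carried a transgene for human MDA-9/SDCBP, the scaffold protein syntenin, HA-tagged at the C terminus and driven by the core of the mouse albumin promoter and its upstream enhancer, which are active in hepatocytes. Age and sex are not stated in the labels, and nothing says that the libraries of a group were from separate mice or cultures. The p-values below therefore measure only how these libraries vary, which may be technical. Neither shared strain segments nor a different mix of cells can be told apart from the transgene here. Each library had 16403918 to 19046739 gene reads on the annotated strand, at which 3 reads, the most a count of 0 allows, equal 0.158 to 0.183 CPM, and such limits cover counting error only. Mouse Sdcbp stood at 172 ± 6.94 in the WT and 175 ± 5.66 CPM in the Alb/MDA-9 libraries (SD, n = 3 each), and the human transgene was not analysed here.

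As background, lincRNAs act in several ways. Some build nuclear bodies: Neat1 is the scaffold of paraspeckles and Malat1 sits in nuclear speckles, where splicing factors gather. Others bind chromatin regulators, act where they are transcribed on a gene nearby, or serve mainly as the precursor of microRNAs or small nucleolar RNAs (snoRNAs), and some carry short open reading frames whose peptides were found later.

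The lincRNAs spanned a wide range of levels, with a single gene at the top. Their median was 5.36 CPM, with 53 genes from 2 to under 5, 48 from 5 to under 20 and 11 at 20 CPM or more. They took 0.290%, 0.243% and 0.245% of the gene reads of WT 1 to 3 and 0.235%, 0.242% and 0.255% of those of Alb/MDA-9 1 to 3. Malat1 alone held 48.0% to 55.6% of these lincRNA reads. Without it the share was 0.123% to 0.129% in WT and 0.119% to 0.123% in Alb/MDA-9. From here on, levels of single genes are in CPM scaled by TMM factors (a correction for library composition), and the order of the levels is shown in the plot of all 112 genes.

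**Figure D1:**
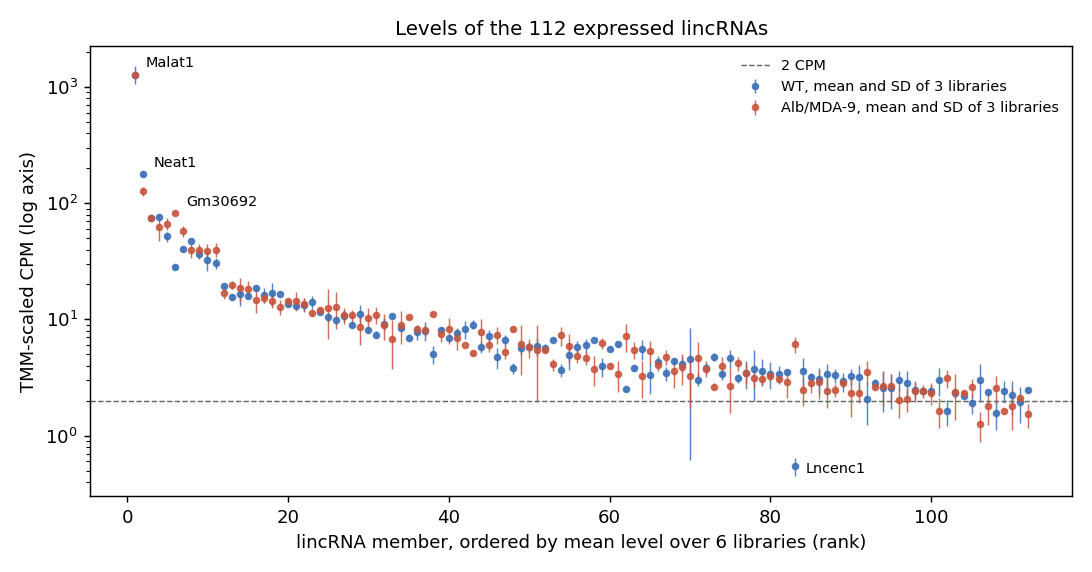
Level of each of the 112 lincRNAs in TMM-scaled CPM (log axis) against its rank by mean level, as mean and SD of the 3 WT (blue) and the 3 Alb/MDA-9 (red) libraries, with the limit of 2 CPM as a dashed line. Malat1 lies at 1277 to 1284 CPM and Neat1 follows at 127 to 179 CPM. Lncenc1 is the gene whose WT level, 0.547 CPM, lies far below its Alb/MDA-9 level of 6.11 CPM.

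Per length, the order changed. RPKM, which divides CPM by the exon length in kilobases, put Malat1 first at 183, then Gm30692 at 69.0, Epb41l4aos at 38.7, Bc1 at 32.3, Gm8883 at 31.8 and Snhg6 at 31.2 (means over the 6 libraries). Neat1, whose annotated exon is 20771 bases long, had an RPKM of 8.61 in WT and 6.11 in Alb/MDA-9. Bc1, a short RNA known from neurons and made by RNA polymerase III, had 168 exonic bases.

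Of the 112 lincRNAs, 15 were higher and 7 lower in Alb/MDA-9 than in WT (edgeR quasi-likelihood test with Benjamini-Hochberg adjustment over all 13296 tested genes, adjusted p under 0.05). All 112 passed the filter on low counts. These 22 are 19.6% of the lincRNAs, beside 14.4% of all tested genes; higher were 13.4% beside 7.35%, and lower 6.25% beside 7.09%. The median log2 change of the lincRNAs was -0.023, beside -0.0015 for all tested genes. The 3 libraries of a group did not overlap those of the other for 44 lincRNAs (39.3%, beside 33.6% of all tested genes), among them all 22 past the threshold. With library totals alone in place of TMM factors, the median of all genes moved to -0.106. The split of the lincRNAs was then 8 higher and 13 lower, and that of all tested genes 525 higher and 1622 lower, beside 977 and 943 with TMM factors. Of the 12 lincRNAs that reached 2 CPM in a single group, the 4 that did so in Alb/MDA-9 held 2 of the 15 higher genes (Lncenc1 and 5033406O09Rik), and the 8 that did so in WT held 1 of the 7 lower (Lncpint). A gene that entered in this way had to differ between the groups, so these 3 support no count. Among the 100 members at 2 CPM or more in both groups, 13 were higher and 6 lower.

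Other gene types at the same mean level give further reference points. Among protein-coding genes at 2 CPM or more, 15.3% passed the same threshold (1646 of 10744), among processed transcripts 20% (14 of 70), and among antisense genes 6.56% (4 of 61). The counts for the noncoding types are small, and no difference between types was tested.

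**Figure D2:**
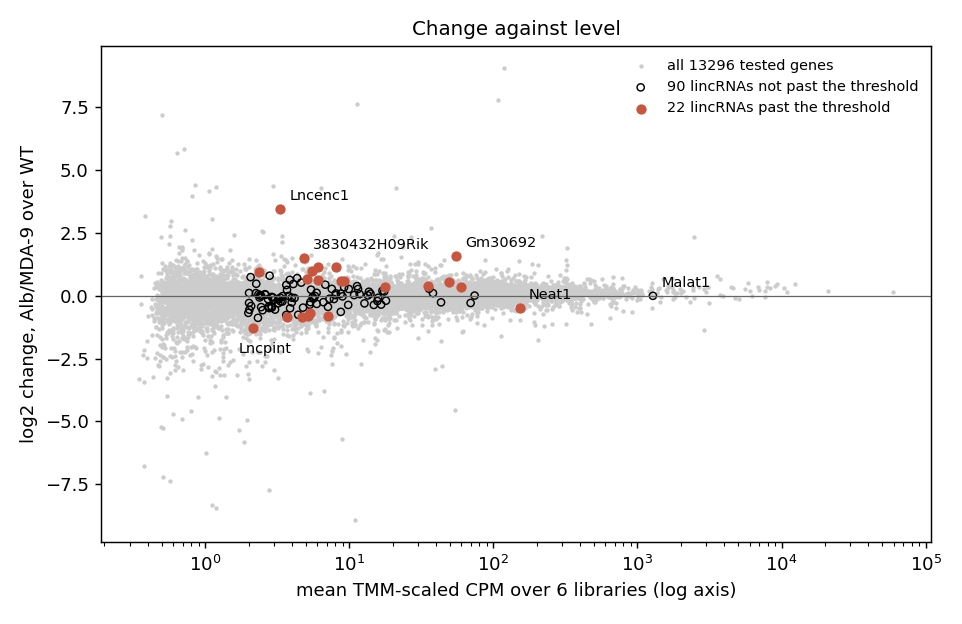
Log2 change (Alb/MDA-9 over WT) against mean TMM-scaled CPM (log axis) for all 13296 tested genes (grey), the 90 lincRNAs not past an adjusted p of 0.05 (open circles) and the 22 past it (red). Lncenc1 lies at 3.46 and Lncpint at -1.28, the ends of the lincRNAs' range, and Malat1, the most abundant, at -0.01.

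Of the 2 nuclear body RNAs on chromosome 19, Neat1 fell and Malat1 did not pass the threshold; the difference between them was not tested. Malat1 (chr19:5795690-5802672, minus strand) stood at 1541, 1131 and 1179 CPM in WT 1 to 3 and at 1225, 1260 and 1346 CPM in Alb/MDA-9 1 to 3. The groups overlapped, with the highest library in WT, and the log2 change was -0.01 (SE 0.11, edgeR adjusted p = 0.974). Neat1 (chr19:5824708-5845478, minus strand), its neighbour, measured 178, 190 and 168 CPM in WT and 114, 135 and 132 CPM in Alb/MDA-9. Every Alb/MDA-9 library lay below every WT library, and Neat1 fell by 0.50 on the log2 scale (SE 0.08, edgeR adjusted p = 0.00162), that is 1.41-fold, past the threshold with each library left out in turn.

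The proteins of these bodies were read as well. Of 28 paraspeckle proteins, all tested, 1 rose and 3 fell (median log2 change -0.07). Sfpq, a core paraspeckle protein that binds Neat1, rose from 155 ± 15.8 to 207 ± 5.68 CPM (SD, n = 3 each). Its relative Pspc1 fell from 30.2 ± 2.49 to 22.8 ± 3.04 CPM, Matr3 from 65.8 ± 1.07 to 52.0 ± 6.47 CPM and Rbm14 from 32.5 ± 2.10 to 26.3 ± 0.872 CPM. Of 23 nuclear speckle and splicing factors 3 rose, namely Tra2a, Rbm25 and Srsf5, with log2 changes of 0.38, 0.36 and 0.24, and none fell (median 0.08). Both lists lie near the 14.4% of all tested genes that passed in either direction.

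**Figure D3:**
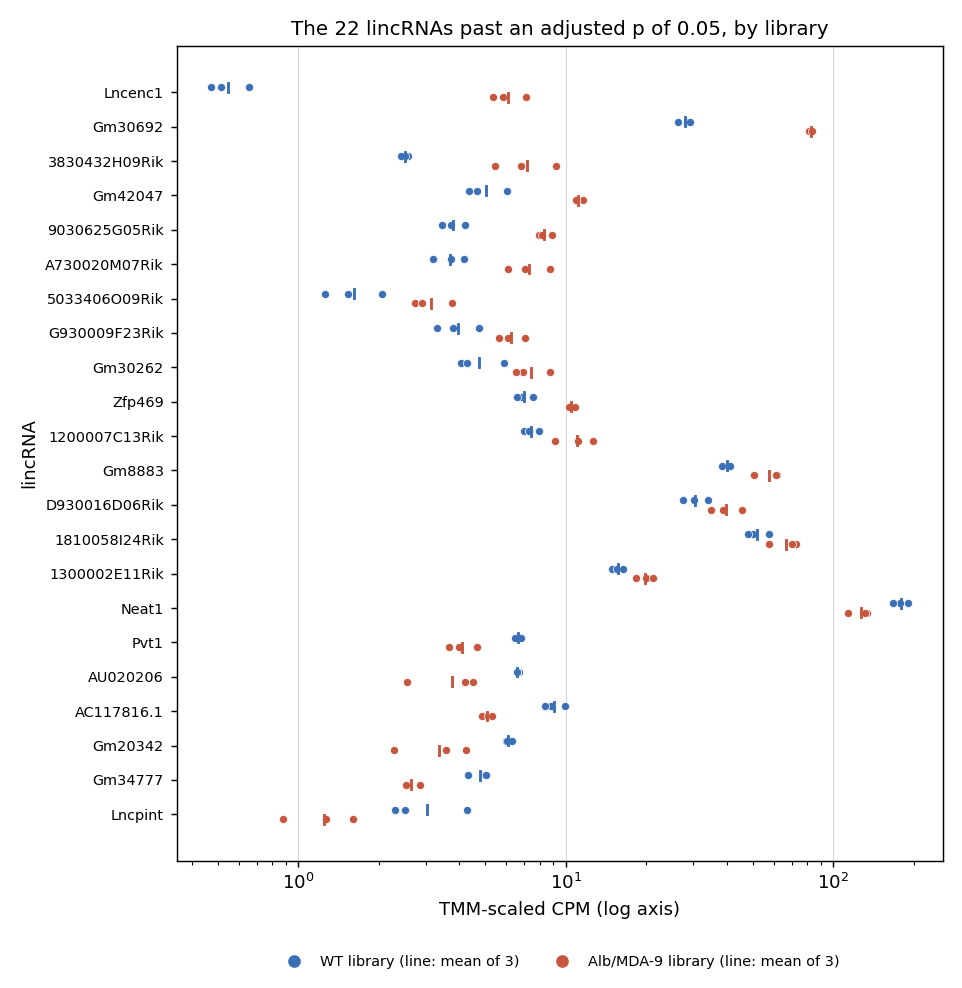
TMM-scaled CPM (log axis) of the 22 lincRNAs past an adjusted p of 0.05, 1 point per WT (blue) or Alb/MDA-9 (red) library with a line at each group mean, ordered by log2 change. The points of the groups do not overlap for any of the 22. The widest gaps are those of Lncenc1 (0.547 and 6.11 CPM in the group means) and Gm30692 (28 and 82.5 CPM).

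Lncenc1 rose most. It is known as a nuclear RNA abundant in mouse embryonic stem cells, also named Platr18, and lies on chromosome 13 (chr13:97434970-97497007, plus strand), 182 kb from Enc1, its nearest tested protein-coding gene. Its levels were 0.656, 0.513 and 0.473 CPM in WT and 7.13, 5.36 and 5.84 CPM in Alb/MDA-9. The mean was 11.2-fold higher in Alb/MDA-9, and its log2 change was 3.46 (SE 0.27, edgeR adjusted p = 5.74e-06). Enc1 stood at 20.8 ± 1.90 CPM with no transgene and 22.6 ± 1.62 CPM with it and did not pass the threshold (edgeR adjusted p = 0.494).

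Gm30692 changed with the least spread. This unnamed gene of 801 exonic bases on chromosome 8 (chr8:24412179-24416937, plus strand) measured 26.4, 28.5 and 29.2 CPM in WT and 83.0, 81.1 and 83.3 CPM in Alb/MDA-9. All 3 Alb/MDA-9 libraries lay together, far above the WT ones. The log2 change was 1.56 (SE 0.07, edgeR adjusted p = 4.72e-08), the lowest p among the 112. It ranked sixth by mean level, and no 50-base stretch of its transcripts occurred in another gene's.

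A further 4 lincRNAs rose 1.98- to 2.86-fold. 3830432H09Rik on chromosome 1 (chr1:119529480-119536165, minus strand) went from 2.57, 2.51 and 2.43 CPM in WT to 9.23, 6.81 and 5.42 CPM in Alb/MDA-9 (log2 change 1.51, SE 0.23, edgeR adjusted p = 0.000882). 9030625G05Rik on chromosome 18 went from 3.43, 4.20 and 3.73 to 8.90, 7.92 and 8.13 CPM (log2 change 1.13, SE 0.17, edgeR adjusted p = 0.000828). Gm42047 on chromosome 8 went from 6.06, 4.36 and 4.67 to 11.6, 10.9 and 11 CPM (log2 change 1.15, SE 0.16, edgeR adjusted p = 0.000585). Its level is uncertain, since 64.8% of its 50-base stretches also occur in Gm43549, which had 0 reads in every library. The fourth, A730020M07Rik on chromosome 3, went from 3.2, 4.15 and 3.73 to 7.07, 8.74 and 6.08 CPM, a log2 change of 0.98 (edgeR adjusted p = 0.00575). In all 4 the lowest Alb/MDA-9 library lay above the highest WT library, and each stayed past the threshold whichever library was left out.

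Smaller rises were found in more abundant lincRNAs. Gm8883 on chromosome 1 (chr1:71888112-71891204, plus strand) measured 40.7, 38.6 and 41.3 CPM in WT and 61.6, 61.1 and 50.6 CPM in Alb/MDA-9 (log2 change 0.52, SE 0.09, edgeR adjusted p = 0.00189). 1810058I24Rik, which RefSeq names Stmp1 and classes as protein-coding for a short mitochondrial peptide, measured 57.6, 50.1 and 47.9 CPM in WT and 72.5, 70.1 and 57.6 CPM in Alb/MDA-9 (log2 change 0.36, edgeR adjusted p = 0.0292). Its lowest Alb/MDA-9 and highest WT libraries nearly touched. D930016D06Rik on chromosome 5 measured 27.4, 30.2 and 34.0 CPM in WT and 45.6, 38.7 and 35.0 CPM in Alb/MDA-9 (log2 change 0.38, edgeR adjusted p = 0.0378). The other higher genes were 5033406O09Rik, G930009F23Rik, Gm30262, Zfp469, 1200007C13Rik and 1300002E11Rik, with log2 changes of 0.95, 0.66, 0.64, 0.58, 0.57 and 0.35. Zfp469, too, is a protein-coding gene in RefSeq, as are 7 of the 112 in all.

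The promoters of called genes are shown where RefSeq gives one for the gene, for the lincRNA of largest change, for the next one with an entry and for the most abundant riser with AP-1 letters. Each runs from 250 bases before the RefSeq start to 50 after it, 5′ to 3′ on the strand of the gene, in build GRCm38.p6, and capitals mark the letters of any motif searched, on either strand. The windows are chr13:97434720-97435019 (plus strand) for Lncenc1, chr1:119536116-119536415 (minus strand) for 3830432H09Rik and chr1:71887862-71888161 (plus strand) for Gm8883.
Lncenc1: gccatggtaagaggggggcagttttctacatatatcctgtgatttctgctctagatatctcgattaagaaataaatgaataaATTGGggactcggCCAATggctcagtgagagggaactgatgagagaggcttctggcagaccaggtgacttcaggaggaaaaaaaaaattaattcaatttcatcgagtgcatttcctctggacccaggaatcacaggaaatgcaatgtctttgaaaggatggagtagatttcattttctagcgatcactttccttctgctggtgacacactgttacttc
3830432H09Rik: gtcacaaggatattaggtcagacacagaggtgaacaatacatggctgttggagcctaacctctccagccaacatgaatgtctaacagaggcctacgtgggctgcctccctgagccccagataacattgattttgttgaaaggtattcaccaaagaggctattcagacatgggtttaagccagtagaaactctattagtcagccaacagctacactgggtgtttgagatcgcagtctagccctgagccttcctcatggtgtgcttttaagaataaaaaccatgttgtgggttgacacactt
Gm8883: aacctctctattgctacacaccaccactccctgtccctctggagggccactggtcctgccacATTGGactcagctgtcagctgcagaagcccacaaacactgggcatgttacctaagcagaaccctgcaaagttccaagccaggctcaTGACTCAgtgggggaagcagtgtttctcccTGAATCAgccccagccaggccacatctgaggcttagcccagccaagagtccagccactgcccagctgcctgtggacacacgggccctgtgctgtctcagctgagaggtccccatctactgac
The motifs searched were AP-1 (TGANTCA), the cAMP response element (TGACGTCA), an E-box (CACGTG), the CCAAT box (CCAAT), the GC box (GGGCGG) and the TATA box (TATAAA). The Lncenc1 window holds CCAAT letters that begin at -168 and -155 bases from the start, the Gm8883 window AP-1 letters at -102 and -72 and CCAAT letters at -188, and the 3830432H09Rik window none of the 6.

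Only 52 of the 112 lincRNAs matched a RefSeq promoter, 6 of them higher and 2 lower in Alb/MDA-9. AP-1 letters stood in 9 of the 52 (17.3%) beside 7.81% of 32851 promoters of the same length. Those 32851 are all RefSeq promoter entries of that length, not limited by gene type or level, so they are an unlike set to expressed lincRNAs. The E-box was in 15.4% beside 7.15%, the cAMP response element in 5.77% beside 1.79%, the CCAAT box in 44.2% beside 37.4%, the GC box in 36.5% beside 35.7% and the TATA box in 9.62% beside 13.6%. Among the 6 higher and the 2 lower genes, AP-1 letters stood in 2 and 0, CCAAT letters in 3 and 2, GC box letters in 2 and 1, those of the cAMP response element in 1 and 0, and those of the E-box and TATA box in none. The 6 higher genes include 5033406O09Rik, with AP-1 and GC box letters, and Lncenc1, with CCAAT letters. Both reached 2 CPM only in Alb/MDA-9, so they support no count here. The median GC content of the 52 was 52.5% beside 52.7%. These shares describe letters in a window and not binding.

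Lncpint and Pvt1 were lower in Alb/MDA-9. Lncpint, which is known to bind the PRC2 complex that methylates histone H3, measured 4.29, 2.51 and 2.31 CPM in WT and 1.6, 0.874 and 1.26 CPM in Alb/MDA-9. It fell by 1.28 on the log2 scale (SE 0.34, edgeR adjusted p = 0.0251). WT 1 stood above the other WT libraries, and without it the adjusted p was 0.143, and without Alb/MDA-9 2 it was 0.0976. Pvt1, the lincRNA next to the Myc oncogene, measured 6.72, 6.46 and 6.80 CPM in WT and 3.98, 4.66 and 3.67 CPM in Alb/MDA-9. It fell by 0.70 on the log2 scale (SE 0.18, edgeR adjusted p = 0.0196), with adjusted p of 0.0644, 0.0697 and 0.0695 without WT 1, WT 2 and WT 3. Myc itself, 47.6 kb away, stood at 183 ± 2.29 and 197 ± 5.39 CPM (edgeR adjusted p = 0.314).

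The other lower lincRNAs carry clone names. AC117816.1, a single exon on chromosome 19, measured 8.84, 8.36 and 9.94 CPM in WT and 4.86, 5.12 and 5.30 CPM in Alb/MDA-9, a fall by 0.83 on the log2 scale (SE 0.16, edgeR adjusted p = 0.00379). AU020206 measured 6.66, 6.56 and 6.57 CPM in WT and 2.54, 4.19 and 4.52 CPM in Alb/MDA-9 (log2 change -0.82). Gm20342, whose start is divergent from that of Ino80d, measured 5.96, 6.05 and 6.27 CPM in WT and 4.25, 3.55 and 2.29 CPM in Alb/MDA-9 (log2 change -0.85). In AU020206 and Gm20342 the WT libraries lay close together and the Alb/MDA-9 libraries were spread below them. Gm34777 measured 5.0, 4.31 and 5.03 CPM in WT and 2.54, 2.85 and 2.53 CPM in Alb/MDA-9 (log2 change -0.85), and again the groups did not overlap.

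The calls differed in how much they rested on single libraries. With each library left out in turn, 9 of the 22 stayed past the threshold in every fit: Neat1 and AC117816.1 among the lower, and Lncenc1, Gm30692, 3830432H09Rik, Gm42047, 9030625G05Rik, A730020M07Rik and Gm8883 among the higher. Lncenc1, which reached 2 CPM only in Alb/MDA-9, supports no count here. For Gm34777 the adjusted p was 0.0650 without WT 1 and 0.0675 without WT 3. For Zfp469 it was 0.0528 without WT 1 and 0.0623 without WT 3. AU020206 lost its call without Alb/MDA-9 1 (0.0554) and without WT 1, WT 2 or WT 3 (0.0775, 0.0842 and 0.0696). Gm20342 lost it without Alb/MDA-9 2 (0.0623) and without WT 1, WT 2 or WT 3 (0.0689, 0.0829 and 0.0766).

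Several of the weaker rises rested on most of the libraries. For 1810058I24Rik the adjusted p was 0.0917 and 0.122 without Alb/MDA-9 1 and 2, and 0.118 and 0.115 without WT 2 and 3. For D930016D06Rik it was 0.122 and 0.0912 without Alb/MDA-9 1 and 2, and 0.151 and 0.124 without WT 1 and 2. The next 3 kept their call only without Alb/MDA-9 3: 1300002E11Rik (0.0854 to 0.161 without another library), 1200007C13Rik (0.0591 to 0.123) and 5033406O09Rik (0.0585 to 0.149). Gm30262 (0.0652 to 0.191) and G930009F23Rik (0.0682 to 0.156) kept it only without WT 1. For these 5, every other library, WT and Alb/MDA-9 alike, was needed.

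Library Alb/MDA-9 3 stood apart on the second principal component of all genes. It was the lowest of the 6 libraries for 29 lincRNAs, beside 12 to 22 for each of the others. Without it 31 lincRNAs passed the threshold, 20 higher and 11 lower, beside 22 with it, and of all genes 2386 of 13695 passed, beside 1920 of 13296. Of the 11 gained, 7 were higher and 4 lower. Gm6093 measured 82.3, 74.5 and 72.7 CPM in WT and 50, 58.4 and 79.4 CPM in Alb/MDA-9, and its adjusted p went from 0.178 to 0.00116 when Alb/MDA-9 3 was left out. Mirt1, named for myocardial infarction, measured 11, 10.7 and 10.3 CPM in WT and 3.87, 6.64 and 9.99 CPM in Alb/MDA-9, and its adjusted p went from 0.112 to 0.00253. In both the third Alb/MDA-9 library lay near the WT libraries and the other two lay well below.

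The most abundant lincRNAs beside these did not pass the threshold. 1700020I14Rik, known as Cyrano and for its paired site for miR-7, measured 70.3, 73.4 and 78.6 CPM in WT and 76.1, 73.1 and 73.3 CPM in Alb/MDA-9 (log2 change 0.00, SE 0.07). Tmem250-ps stood at 47.3 ± 1.24 and 39.4 ± 5.27 CPM (edgeR adjusted p = 0.0846), and 3300005D01Rik at 36.7 ± 3.91 and 39.4 ± 5.58 CPM (SD, n = 3 each). The log2 changes of the 90 lincRNAs not past the threshold ran from -0.88 (Gm20045) to 0.79 (4732465J04Rik), and 18 of them had an unadjusted p under 0.05. The median coefficient of variation of the 112 was 12.3% among the WT and 16.9% among the Alb/MDA-9 libraries. Jpx and Ftx, X-linked RNAs known for their role in turning on Xist, measured 2.59 ± 1.01 and 2.65 ± 0.865 CPM and 3.47 ± 0.944 and 3.44 ± 0.682 CPM. Xist itself had 0 reads in all 6 libraries, as had the imprinted RNA H19. The Y-linked gene Ddx3y measured 72.4 to 102 CPM over the 6 libraries, so each held RNA of male cells.

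Several lincRNAs are precursors of microRNAs, whose seeds (bases 2 to 8, in capitals) set which messages they pair with. The mature sequences below, from RefSeq, are 1 arm of each microRNA gene inside Mir17hg, 6720427I07Rik, E130102H24Rik and AL805899.1; the other arms are not shown. They are grouped by shared seed and shown to identify what each host carries. The libraries measured the hosts and not the microRNAs. The miR-17 and miR-20a pair share a seed, miR-19a and miR-19b share another, and the 3 let-7 members share a further one.
miR-17-5p: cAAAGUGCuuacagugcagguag
miR-20a-5p: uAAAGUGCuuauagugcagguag
miR-18a-5p: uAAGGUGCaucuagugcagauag
miR-19a-3p: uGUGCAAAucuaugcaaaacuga
miR-19b-3p: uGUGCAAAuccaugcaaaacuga
miR-92a-3p: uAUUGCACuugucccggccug
let-7a-5p: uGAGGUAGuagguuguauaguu
let-7d-5p: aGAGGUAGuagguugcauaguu
let-7f-5p: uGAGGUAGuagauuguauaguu
miR-101a-3p: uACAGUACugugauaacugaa
miR-31-5p: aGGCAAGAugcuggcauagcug

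None of the 8 hosts of microRNA genes passed the threshold in edgeR, DESeq2 or limma-voom, none had an unadjusted p under 0.05 in edgeR, and their median log2 change was -0.023. With 14.4% of all tested genes past the threshold, 0 of 8 is too few genes to differ visibly from that share. Mir17hg, the host of the growth-promoting miR-17 to miR-92 cluster (chr14:115042879-115046727, plus strand), measured 15.6, 16 and 16 CPM in WT and 20.5, 19.3 and 14.6 CPM in Alb/MDA-9. The groups overlapped through Alb/MDA-9 3, and the log2 change was 0.19 (SE 0.13, edgeR adjusted p = 0.360). 6720427I07Rik (chr13:48532905-48546500, minus strand), host of let-7a, let-7d and let-7f, measured 8.99, 7.95 and 10.3 CPM in WT and 10.1, 6.29 and 10.2 CPM in Alb/MDA-9. AC157910.3 on chromosome 18 holds the gene of miR-122, the main microRNA of hepatocytes, and measured 5.10, 1.79 and 4.26 CPM in WT and 3.09, 3.79 and 2.59 CPM in Alb/MDA-9. Its WT libraries alone spanned more than the difference of the group means.

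The remaining microRNA hosts also stayed short of the threshold. AL805899.1, host of miR-31, stood at 12.9 ± 0.518 and 14.4 ± 2.61 CPM, and E130102H24Rik, host of miR-101a, at 2.83 ± 0.735 and 2.06 ± 0.452 CPM (SD, n = 3 each). Ftx, given above, holds the genes of miR-421 and miR-374b in an intron, Snhg20 that of miR-6516 in an exon, and Gm36283 an unnamed one. Gm36283 was the only one of these hosts whose groups did not overlap, at 3.12 ± 0.279 and 4.19 ± 0.604 CPM (edgeR adjusted p = 0.220). Of 16 tested microRNA processing genes none passed the threshold in edgeR, DESeq2 or limma-voom, and 5 had an unadjusted p under 0.05 in edgeR.

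SnoRNAs and the related scaRNAs, cut from introns or exons of their hosts, guide the modification of ribosomal and splicing RNAs. None of the 5 hosts passed the threshold in edgeR, DESeq2 or limma-voom (1 at an unadjusted p under 0.05), with a median log2 change of -0.22; at the 14.4% of all tested genes, 0 of 5 shows nothing particular to them. Snhg6 measured 39.9, 28.7 and 28.6 CPM in WT and 43.0, 42.0 and 32.5 CPM in Alb/MDA-9 (log2 change 0.27, edgeR adjusted p = 0.221), where WT 1 sat with the Alb/MDA-9 libraries. Its adjusted p was 0.0469 without WT 1 and 0.0411 without Alb/MDA-9 3. Snhg12, whose exon spans 4 named snoRNA genes, measured 12.7, 20.1 and 17.7 CPM in WT and 16.7, 14.2 and 12.6 CPM in Alb/MDA-9. Epb41l4aos stood at 18.7 ± 1.23 and 14.6 ± 3.17 CPM with groups that did not overlap (edgeR adjusted p = 0.138), 2700038G22Rik at 5.85 ± 0.720 and 4.89 ± 0.696 CPM and Snhg20 at 8.19 ± 0.474 and 7.48 ± 1.05 CPM. Of the 15 snoRNP core proteins none passed with any of the 3 tools (median -0.06), and 1 had an unadjusted p under 0.05 in edgeR.

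**Figure D4:**
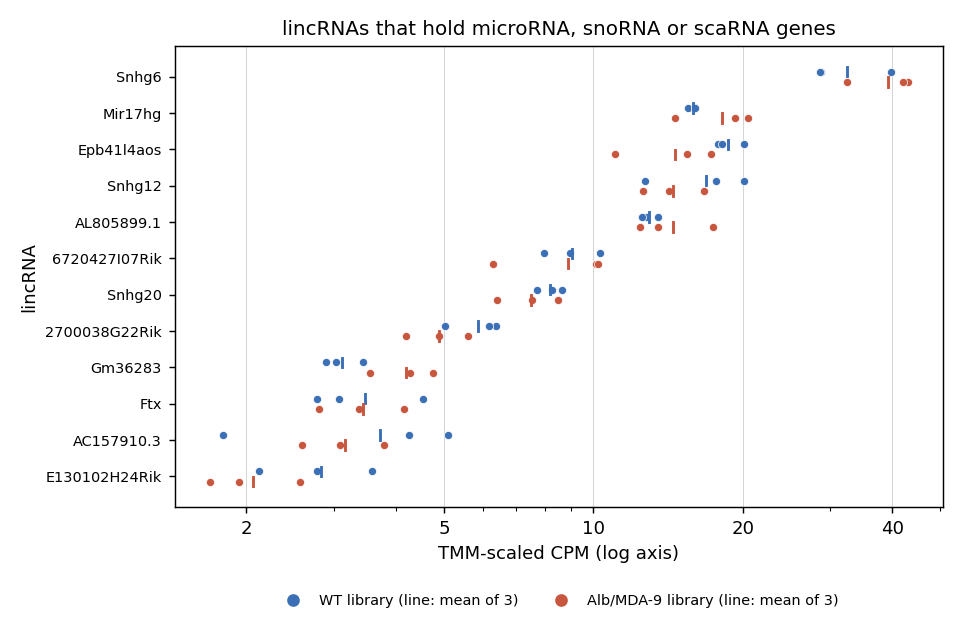
TMM-scaled CPM (log axis) of the 12 lincRNAs whose gene holds a microRNA, snoRNA or scaRNA gene, 1 point per WT (blue) or Alb/MDA-9 (red) library with a line at each group mean. The groups overlap for all but Epb41l4aos and Gm36283, and none of the 12 passed an adjusted p of 0.05.

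Each lincRNA was set beside its nearest tested protein-coding gene. Of the 112 neighbours 25 passed the threshold (22.3%, beside 14.8% of the 12112 tested protein-coding genes), and the neighbours are 110 distinct genes. Across all 112 pairs the log2 changes had a Pearson r of 0.06, and 0.06 again over the 44 pairs within 10 kb, where both genes share libraries, strain and locus. The change had the same sign in 61 of 112 pairs and in 22 of the 44 near pairs. In 8 pairs both genes passed the threshold, 7 of them in the same direction. In 14 pairs the lincRNA passed and its neighbour did not, and in 17 the neighbour alone passed. Whether 8 is more than unrelated pairs would give was not tested.

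Among these 8, the closest pair was AC117816.1 and A1cf, which lies 1.09 kb away on the same strand and encodes a cofactor of Apob RNA editing. A1cf fell from 20.7 ± 0.292 to 13.8 ± 0.4 CPM (log2 change -0.58, edgeR adjusted p = 0.00219). Whether reads that run on from A1cf were counted for AC117816.1 was not tested. Dusp6, a phosphatase of the kinase ERK 20.2 kb from Gm34777, fell from 101 ± 7.56 to 74.8 ± 4.25 CPM. Tcim, a small regulator of transcription 20.2 kb from Gm30692, rose from 61.0 ± 8.0 to 86.1 ± 1.38 CPM, a log2 change of 0.50 beside 1.56 for the lincRNA.

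Pkd2, the gene of the channel polycystin-2 on chromosome 5, rose from 8.87 ± 0.874 to 44.6 ± 2.76 CPM (log2 change 2.33), while D930016D06Rik, 19.9 kb away on the same strand, changed by 0.38. Phlda1, 90.5 kb from Gm30262, rose from 124 ± 3.54 to 181 ± 6.28 CPM, and Azin1, the inhibitor of antizyme 32.3 kb from G930009F23Rik, from 119 ± 4.89 to 149 ± 13.1 CPM. Fn1, the fibronectin gene 235 kb from Gm8883, rose from 2707 ± 50.1 to 3467 ± 154 CPM. The single pair that went apart was AU020206 and Akap13, an anchoring protein of protein kinase A 14.4 kb away on the other strand, which rose from 84.4 ± 3.67 to 108 ± 0.596 CPM.

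**Figure D5:**
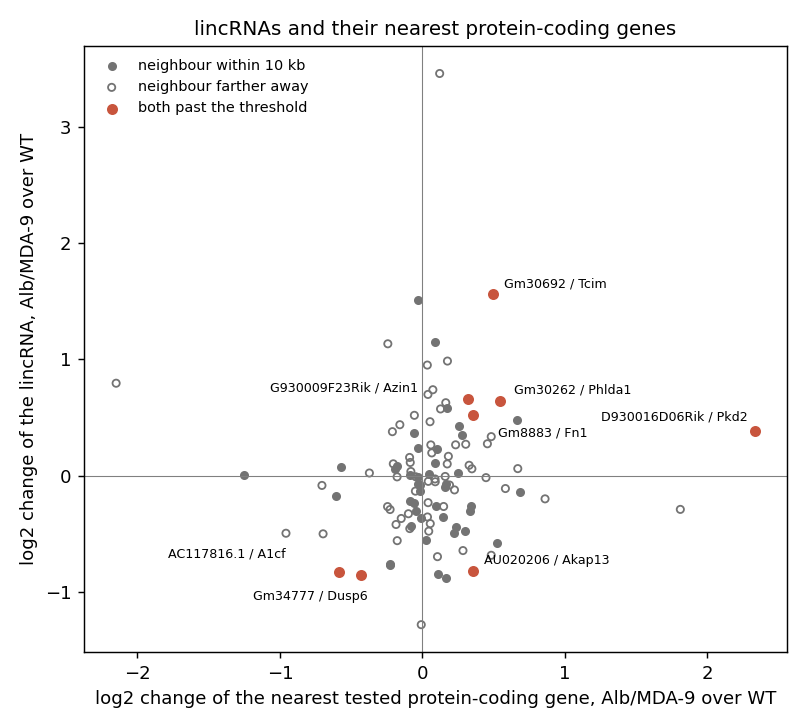
Log2 change (Alb/MDA-9 over WT) of each of the 112 lincRNAs (vertical axis) against that of its nearest tested protein-coding gene (horizontal axis), filled grey within 10 kb, open beyond it, and red where both passed the threshold. The 8 red pairs carry both names, and 7 of them lie in the lower left or upper right quadrant.

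Some members are doubtful as separate lincRNAs, and those named here were picked out after their values were seen. Gm36026, which overlaps the keratin gene Krt8, had 77.0% of its stranded reads on the opposite strand, and Gm16973, over Mphosph8, 52.6%. Gm10076 shares 69.9% of its 50-base stretches with the ribosomal protein gene Rpl41, and the 2 genes named C730027H18Rik share exons on the same strand. Of these none passed the threshold. Doubtful members that did pass included Gm42047 for its shared stretches and 1300002E11Rik, which shares exonic bases with Map3k13. They also included 1810058I24Rik and Zfp469 for their protein-coding class in RefSeq. Those named were higher, but exons of 40 of the 112 overlap an exon of another gene, 2 of them higher and 3 lower. Neat1, which was lower, is among these 40. Over all 112, 10 shared over 10% of their 50-base stretches with another gene, 1 of them higher and none lower, and 6 had over 10% of their reads on the opposite strand, none of them past the threshold. RefSeq lists 76 of the 112 as long noncoding RNAs, 7 as protein-coding and 2 as pseudogenes, and 27 had no RefSeq symbol.

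Position and structure split the changed genes as follows, beside 13.4% higher and 6.25% lower among all 112 and 7.35% and 7.09% among all tested genes. Of 15 lincRNAs with a start divergent from a protein-coding gene within 5 kb, none was higher and 1 lower, with a median log2 change of -0.30. Of 63 farther than 10 kb from any protein-coding gene 9 were higher and 4 lower (median -0.01). The 13 within 10 kb downstream on the same strand held 3 and 2, the 10 that overlap a protein-coding gene 3 and 0, and the 11 others within 10 kb neither with edgeR, DESeq2 or limma-voom (3 at an unadjusted p under 0.05). Of 21 lincRNAs with a single exon block 1 was higher and 3 lower, and of 91 with more, 14 and 4. The classes are small, so a count of 0 or 1 is near what these shares give, and no difference between them was tested.

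Other noncoding RNAs and their protein partners were read in the same libraries, in which 14.4% of all tested genes passed the threshold. Of 94 listed long noncoding RNAs with a name or published function, 68 matched a gene symbol and 36 were tested. Of these 36, 13 of them among the 112, 3 rose and 6 fell (median -0.15). Members annotated under a clone name, such as 1700020I14Rik (Cyrano), were not matched and are not in these counts. Outside the 112, Mir22hg rose from 36.6 ± 0.779 to 45.0 ± 1.90 CPM and Firre from 48.2 ± 2.43 to 57.7 ± 3.49 CPM. Snhg3 fell from 29.4 ± 2.60 to 22.7 ± 0.691 CPM, Snhg11 from 14.6 ± 1.43 to 9.83 ± 1.56 CPM and Rn7sk from 3.76 ± 0.973 to 1.54 ± 0.857 CPM. Snhg11 was listed by its name, and its type in GENCODE M21 is protein-coding. Of 21 chromatin partners of long noncoding RNAs 3 fell and none rose (median 0.01): Ezh2, the methylating subunit of PRC2, with a log2 change of -0.41, the DNA methyltransferase Dnmt1 with -0.37, and Wdr5 with -0.30. These 3 of 21 are near the share of all tested genes. Of 29 genes of the nuclear exosome and of nonsense-mediated decay, which remove noncoding transcripts, Upf3b alone passed, with a log2 change of 0.48, and of 14 Integrator subunits none did with edgeR, DESeq2 or limma-voom (4 at an unadjusted p under 0.05). Of 12 tested genes in imprinted domains Igf2r alone passed, with 0.27, and of 8 sex-chromosome genes none with edgeR or limma-voom and 1 with DESeq2 (2 at an unadjusted p under 0.05 in edgeR).

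Markers of other cells moved with the genotype, and fewer cells of a type cannot be told apart from less RNA per cell. The summed markers of Kupffer cells, the liver's macrophages, were 394 to 410 CPM in WT and 224 to 386 CPM in Alb/MDA-9, where 7 of 10 fell and Alb/MDA-9 3 was lowest. Those of endothelial cells were 261 to 284 and 203 to 224 CPM (4 of 10 fell), those of stellate cells 293 to 314 and 196 to 263 CPM (5 of 10 fell) and those of bile duct cells 123 to 136 and 137 to 161 CPM (2 rose and 2 fell). Markers of dividing cells were 69.8 to 79.6 CPM in WT and 13.8 to 24.0 CPM in Alb/MDA-9, with all 7 tested lower. Hepatocyte markers summed to 77558 to 80856 and 78848 to 94954 CPM, and 4 of 8 lymphocyte markers had no read in any library. The part of these cells in the lincRNA changes was not tested.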

How the data were processed

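RNA of cultured hepatocytes was sequenced as 3 WT and 3 Alb/MDA-9 libraries (TruSeq RNA kit, HiSeq3000), per the labels' protocols. The submitters' processing notes name FastQC 0.11.2, Trim Galore 0.6.6, STAR 2.7.9a, edgeR 3.18.1 and the build GRCm38; the annotation release is not given in the sources used here, and neither are the options. The deposited tables hold raw read counts per gene, not normalised. The reverse-strand column, which held 96.9% to 97.2% of stranded reads, was used, without its first 4 rows, which name no gene (among them reads mapped to several places, 18.7% to 20.2%). STAR counts uniquely mapped reads only, so near-identical copies lose counts. Gene types and coordinates came from GENCODE M21, which held 55141 of 55487 identifiers.

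Genes were filtered with filterByExpr (minimum count 10), scaled by TMM and tested with edgeR 4.0.16 (R 4.3.3) without covariates, with 4 residual degrees of freedom and Benjamini-Hochberg adjustment at 0.05; the script was tested on simulated data. The SE is the log2 change divided by the root of F. Alternatives were DESeq2 1.42.0, limma-voom 3.58.1, other scalings, filters and memberships, unstranded counts, a replicate block, a test against a fold of 1.5 and leaving out each library.

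Named are the 10 most abundant members, the 10 of largest change past the threshold in each direction and members on a fixed list. Small RNA hosts, those at the limit and pairs in which both genes passed are named too. The lists were matched by gene symbol, so a listed RNA annotated under a clone name could be missed. Other called members were named with their log2 change. The members and lists were chosen with earlier results of these data known.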

Additional observations from a re-analysis of the deposited data

How the results depend on the processing

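The number of lincRNAs past the threshold was 21 with library totals alone and with DESeq2, 22 with other size factors (RLE), with limma-voom and with unstranded counts, 29 without the filter and 18 of the 92 left at a minimum count of 50. Of all genes 2147 of 13296 passed with library totals, 2367 of 24459 unfiltered and 1650 of 10828 at a minimum count of 50. Of the 22 genes, 21 kept their call with DESeq2, 22 with limma-voom and 15 with library totals, and none changed direction under any setting. In a test against a fold of 1.5, 5 lincRNAs (5 higher, 0 lower) and 240 of all genes passed, since that test asks for a larger change. Lncenc1, 5033406O09Rik and Lncpint, which reached 2 CPM in a single group, support none of the counts in this section. With each library left out, 11 to 31 lincRNAs passed, and 1018 to 2386 of all genes beside 1920. The median log2 change of the lincRNAs was -0.126 with library totals, where that of all tested genes was -0.106. For the lincRNAs it was -0.0548 at a minimum count of 50 and 0.024 for the 59 at a mean of 5 CPM or more. With a library left out it was -0.0698 to -0.0076. The cause of these shifts was not tested. After the data were seen, 2 memberships were added: 2 CPM in each group (19 passed of 100) and no near copy (21 of 102).

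The replicate numbers did not pair the libraries: same-numbered deviations had correlations of -0.041, -0.00 and -0.062. With a replicate block 17 lincRNAs passed, 10 higher and 7 lower, with a median log2 change of -0.029, and all 17 were among the 22; 1601 of all genes passed. Depth limits the lowest members, of which 1 had 8 reads in a library. Of the 112, 6 had over 10% of their reads on the opposite strand, and 10 shared over 10% of their 50-base stretches with another gene.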
